A study of Homo sapiens with 12 samples.

Results

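The mRNAs of 10 adhesion genes were followed here in a human leukemia line: the integrin subunit genes ITGAL, ITGAM, ITGAX, ITGB2, ITGA4, ITGA5, ITGB1 and ITGB7, and the ligand genes ICAM1 and ICAM3. They were taken by symbol from a table of 61487 gene identifiers, each symbol matched 1 identifier, and all 10 passed the filter on low counts that left 16104 genes for testing. MOLM14 is an established acute myeloid leukemia line of monocytic type. All 12 libraries came from cells that carry a doxycycline-switched shRNA. It targets NRIP1, the gene of RIP140, a coregulator of nuclear receptors. The groups were untreated cells (no ATRA, shRNA not induced), cells exposed for 48 h to 1 µM ATRA (all-trans retinoic acid), cells given doxycycline (DOX, 50 ng/mL, renewed every other day, shRNA induced; how long it was given before ATRA is not clear from the sources used here), and cells given both, called the combined group below. Each group had 3 biological replicates per the series' design text. All libraries come from this 1 line, and no cells without the shRNA were analysed here, so an effect of the shRNA and an effect of doxycycline itself cannot be told apart.

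Integrins are cell-surface receptors built from 1 alpha and 1 beta chain, and a chain reaches the surface only with a partner. ITGB2 encodes the beta-2 chain (CD18) of the leukocyte integrins, which pairs with the alpha chains of LFA-1 (ITGAL, CD11a), Mac-1 (ITGAM, CD11b) and p150,95 (ITGAX, CD11c). ITGB1 and ITGB7 encode beta chains that compete for the alpha-4 chain (ITGA4): alpha-4 beta-1, or VLA-4, holds blood progenitors and leukemia cells to VCAM-1 and fibronectin in the marrow, and alpha-4 beta-7 binds MAdCAM-1 on gut endothelium. ITGA5 with ITGB1 forms the classical fibronectin receptor. ICAM-1 and ICAM-3, members of the immunoglobulin superfamily, are ligands of LFA-1, and ICAM-1 is also bound by Mac-1. Retinoic acid drives myeloid leukemia cells toward maturation, and CD11b is the marker by which that step is usually read.

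The 3 alpha chains of the beta-2 family lie on chromosome 16 of GRCh38 on the same strand. ITGAL occupies chr16:30472658-30523185, ITGAM chr16:31259967-31332892 and ITGAX chr16:31355134-31382997, so that only 22241 bases separate ITGAM from ITGAX. ICAM1 (chr19:10270835-10286615) and ICAM3 (chr19:10333776-10339823) belong to a cluster on chromosome 19, with ICAM4 starting 351 bases after ICAM1, ICAM5 following after 1458 bases and ICAM3 lying 36997 bases further on the opposite strand. ITGB7 (chr12:53191318-53207307) and ITGA5 (chr12:54395261-54419460) are both on the minus strand of chromosome 12. ITGB2 is at chr21:44885953-44931989, ITGA4 at chr2:181457202-181536187 and ITGB1 at chr10:32900319-33005792.

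The sequence before the start site is shown for ITGAM and ITGB7 because these 2 members rose with ATRA and were lower again when the shRNA was induced under ATRA, and a short site is shown for ICAM1, which rose with ATRA and had no call on shRNA induction. Windows of 250 bases before the start came from RefSeq (GRCh38.p14) and were found for 7 of the 10 members. Bases that GENCODE 29 places in an exon of the same gene were left off, which leaves 242 bases for ITGAM (chr16:31259725-31259966, plus strand) and 194 for ITGB7 (chr12:53207308-53207501, minus strand). The ICAM1 window lies wholly in an annotated exon, so only 30 bases are given (chr19:10270923-10270952, plus strand). Each is written 5′ to 3′ with motif matches in capitals.
ITGAM: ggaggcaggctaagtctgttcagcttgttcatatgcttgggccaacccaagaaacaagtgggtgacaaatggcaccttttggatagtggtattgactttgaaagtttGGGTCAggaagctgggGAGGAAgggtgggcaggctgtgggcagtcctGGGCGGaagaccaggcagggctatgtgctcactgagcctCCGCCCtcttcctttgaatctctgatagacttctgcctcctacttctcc
ITGB7: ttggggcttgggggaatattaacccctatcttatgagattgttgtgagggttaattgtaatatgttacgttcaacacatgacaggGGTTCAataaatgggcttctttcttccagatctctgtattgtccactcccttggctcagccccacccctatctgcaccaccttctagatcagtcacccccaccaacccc
ICAM1: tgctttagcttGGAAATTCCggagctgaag

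Capitals mark exact matches on either strand to half-sites of retinoid receptors (AGGTCA or its variants GGGTCA and AGTTCA or again GGTTCA), the PU.1 core GAGGAA, the Sp1 box GGGCGG and the κB form GGAAATTCC. The AP-1 form TGANTCA was searched as well, together with the core of the interferon-stimulated element. The ITGAM stretch held 1 half-site (GGGTCA), 1 PU.1 core and 2 Sp1 boxes, 1 of them on the opposite strand, and the ITGB7 stretch held 1 half-site (GGTTCA). The 56 bases left off for ITGB7, not printed, held 1 PU.1 core on the opposite strand, a motif found in 23.6% of whole 250-base windows. No match overlapped another. Among 35116 RefSeq windows cut to the same length as that of ITGAM, 33.0% held a half-site, 22.8% a PU.1 core and 41.7% an Sp1 box. Cut to the length used for ITGB7, 27.6% held a half-site. These short motifs are therefore common, and a single half-site is not the paired arrangement that retinoid receptor dimers bind. The κB form of ICAM1, which begins in the stretch above after its first 11 bases, was rarer and occurred in 0.413% of the 250-base windows. The whole ICAM1 window, of which only the κB stretch is printed, also held 2 half-sites (GGGTCA, 1 on each strand) and 2 Sp1 boxes, motifs found in 33.8% and 42.6% of windows of that length. A match is a description of letters and was not tied to any binding measurement.

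Before the results, the libraries themselves were compared. They held 2685984 to 19358619 gene counts, the least in DOX replicate 3. The share taken by the mitochondrial ribosomal RNAs was lower in every DOX library (1.02 to 2.18%) than in every untreated library (2.54 to 4.60%). With ATRA it was 2.09 to 2.75%, and with both agents 1.24 to 2.02%. NRIP1, the shRNA's target, fell with DOX by 1.77 ± 0.13 on the log2 scale (SE, edgeR quasi-likelihood test, adjusted p = 1.47e-07) and by 1.22 ± 0.13 with DOX under ATRA (adjusted p = 6.49e-06). With ATRA alone it was at 43.8 ± 7.10 CPM beside 57.3 ± 3.51 CPM in untreated cells (SD, n = 3), a log2 change of −0.39 ± 0.12 (adjusted p = 0.0185), so induction under ATRA started from a lower level. Equal depth ended that ATRA call, as did leaving out ATRA replicate 1, ATRA replicate 2 or untreated replicate 1 or 2. Of 12 markers of monocytic myeloid leukemia, 11 passed the filter and their summed level was 1301 to 1555 CPM over all libraries. That sum hides opposite changes: with ATRA 4 of the 11 rose (CSF1R, CD33, SPI1 and CD4) and 4 fell. Over all tested genes 15.7% were called higher and 13.2% lower with ATRA. Among the markers that fell were MPO, myeloperoxidase, by 0.77 ± 0.14 and FCGR1A by 0.73 ± 0.13 on the log2 scale (edgeR). With DOX MPO and FCGR1A rose by 0.69 ± 0.14 and 0.65 ± 0.13. CD14, the monocyte lipopolysaccharide coreceptor, had only 23 counts over all 12 libraries. Lymphoid markers summed to 11.9 to 25.7 CPM, most of it NKG7, with CD3E at 0. Erythroid and megakaryocyte markers summed to 3.29 to 6.94 CPM, with PF4 and PPBP at 0. Endothelial, fibroblast and epithelial markers, through the keratins KRT8 and KRT18, summed to 44.3 to 53.5 CPM without agents, 33.1 to 38.8 CPM with ATRA, 60.5 to 72.3 CPM with DOX and 40.3 to 55.6 CPM with both, while VWF, KDR and EPCAM were at 0. KRT18 fell with ATRA by 0.55 ± 0.11 (adjusted p = 0.00104) and rose with DOX by 0.43 ± 0.11 (adjusted p = 0.0149), so these sums moved with both agents. Their part in the results below was not tested.

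Levels are given as CPM, a gene's count relative to all counts of its library after TMM scaling, and comparisons between genes as CPM per kilobase of exon. ITGB7, ICAM3 and ICAM1 share exon bases with genes on the opposite strand (described below), so their place among the other genes is uncertain. In untreated cells ITGAL and ITGB2 mRNA stood far above the rest, at 47.9 ± 6.07 and 38.5 ± 2.15 CPM per kilobase (SD, n = 3). ITGB1 (14.6 ± 1.00), ITGA5 (13.9 ± 1.46), ITGA4 (12.1 ± 0.766) and ICAM3 (11.4 ± 0.566) formed a middle step in which each overlapped the next over its libraries. ICAM1 at 8.23 ± 0.485 and ITGAM at 5.06 ± 0.360 came lower and apart from each other. ITGB7 at 1.16 ± 0.167 and ITGAX at 0.358 ± 0.0822 were the lowest. The uninduced line thus had, at the mRNA level, the chains of LFA-1, VLA-4 and the fibronectin receptor, with little message for CD11c or beta-7.

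DOX alone left ITGB2 (43.9 ± 3.99 CPM per kilobase) and ITGAL (43.4 ± 5.74) on top with ICAM3 next, at 21.6 ± 2.29. The order changed more with ATRA. ITGB2 (52.1 ± 3.06 CPM per kilobase) and ITGAL (51.7 ± 2.95) stayed on top and could no longer be separated, and ITGA5 came next at 22.6 ± 0.598. ICAM3 (18.7 ± 2.25), ICAM1 (17.8 ± 1.39), ITGA4 (14.9 ± 1.75), ITGB7 (14.9 ± 1.56), ITGB1 (13.6 ± 1.13) and ITGAM (13.2 ± 1.52) each overlapped their neighbour. Counts per kilobase for beta-7 had thus reached those for beta-1, within the limit of the shared exon bases. ITGAX remained last at 2.40 ± 0.625. In the combined group ITGA5 (33.4 ± 1.79) and ICAM3 (30.3 ± 2.45) stood above all members except ITGAL and ITGB2, while ITGAM (9.82 ± 0.296) and ITGB7 (8.86 ± 0.915) were again below ITGB1 (16.8 ± 0.739).

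**Figure D1:**
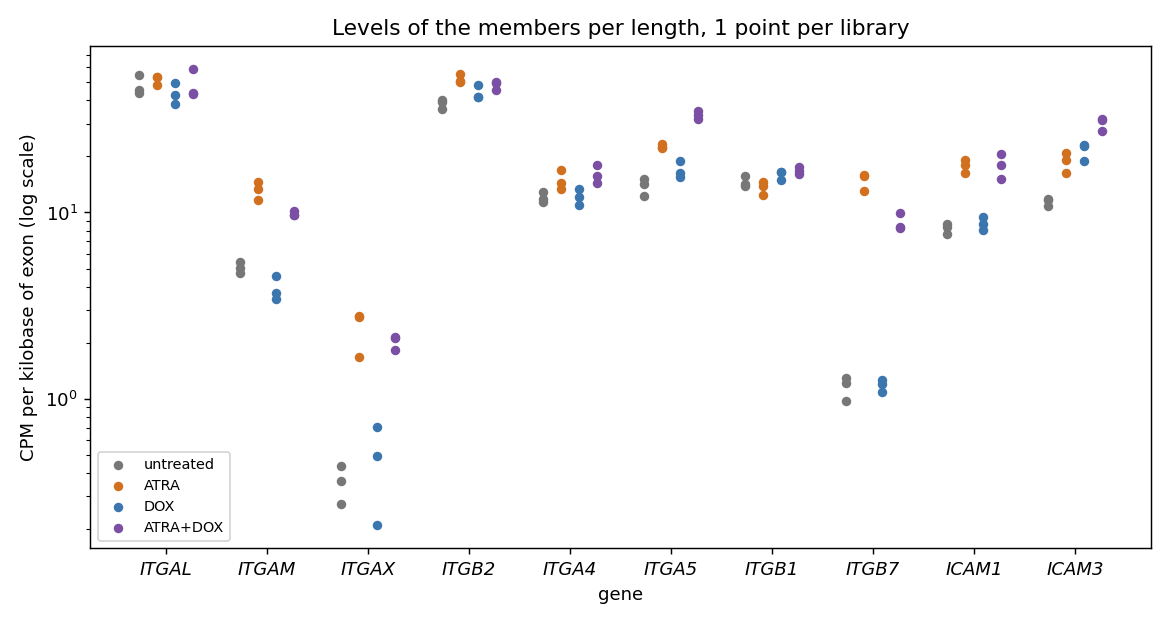
CPM per kilobase of exon (log axis) for each of the 10 genes, 1 point per library, coloured by group. ITGAL and ITGB2 are highest in untreated cells and ITGAX lowest, and ITGB7 moves from about 1.16 in untreated to 14.9 in ATRA-treated cells.

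With ATRA alone, 8 of the 10 genes rose and none fell, where 15.7% of all 16104 tested genes were called higher and 13.2% lower (edgeR quasi-likelihood test, Benjamini-Hochberg adjusted p under 0.05). The median log2 change was 0.71 for the 10 genes and −0.01 for all genes tested. The 2 without a call were ITGAL and ITGB1. RNA from whole cultures cannot tell more cells of a type from more RNA per cell. The genes were proposed for study with results of these data known, so the counts describe the group and are no test of it.

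In the beta-2 family, ITGAM and ITGAX carried the ATRA response. ITGAM mRNA was at 26.9, 28.5 and 30.9 CPM in the 3 untreated libraries and at 76.2, 66.0 and 83.2 CPM with ATRA. These groups were widely apart, and the change was 1.38 ± 0.11 on the log2 scale, or 2.60-fold (edgeR, adjusted p = 2.14e-09). ITGAX was at 1.93, 2.57 and 3.09 CPM in untreated and at 19.5, 11.9 and 19.7 CPM in ATRA libraries, a rise of 2.71 ± 0.26 (6.56-fold, adjusted p = 5.64e-08). Its untreated level rests on 106 counts over 3 libraries, its error was the widest among the members, and the lowest ATRA library was above every untreated one.

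Their common beta chain moved less. ITGB2 rose from 246, 274 and 265 CPM to 378, 339 and 346 CPM with ATRA, by 0.44 ± 0.09 (1.35-fold, adjusted p = 0.000559), again without overlap. ITGAL, which encodes the alpha chain of LFA-1, was at 282, 293 and 355 CPM in untreated and at 345, 312 and 346 CPM in ATRA libraries. The groups overlapped, and its change of 0.11 ± 0.12 did not pass the test (adjusted p = 0.530), with a 95% interval from −0.13 to 0.34.

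Because a ratio within 1 library does not depend on how libraries are scaled, the make-up of the family was also compared directly, as the share of each alpha chain in the summed per-kilobase level of ITGAL, ITGAM, ITGAX and ITGAD. ITGAL made up 89.8 ± 0.467% (SD, n = 3) in untreated cells and 76.8 ± 1.46% with ATRA. ITGAM went from 9.52 ± 0.503 to 19.6 ± 0.960%, and ITGAX from 0.666 ± 0.0903 to 3.54 ± 0.699%. ITGAD, the next gene after ITGAX on chromosome 16 at a distance of 10314 bases, had 23 counts over all 12 libraries. For each of the 3 shares the ATRA effect over both DOX states was as extreme as the design allows (exact permutation test, two-sided, n = 12 libraries, p = 0.005, the smallest of 400 arrangements, adjusted p = 0.00875 over 14 tests). Message for the LFA-1 alpha chain stayed the most abundant in all 12 libraries. The summed alpha chains over ITGB2 gave log2 ratios of 0.47 ± 0.16 without agents, 0.37 ± 0.09 with ATRA, 0.12 ± 0.24 with DOX and 0.32 ± 0.17 with both, and neither the ATRA effect (0.05, adjusted exact p = 0.695) nor the DOX effect (−0.20, adjusted exact p = 0.128) passed the test.

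Among the other integrin chains, ITGB7 showed the largest ATRA response of the 10 genes. It was at 5.80, 4.37 and 5.47 CPM in untreated and at 70.6, 58.7 and 71.0 CPM in ATRA libraries, a rise of 3.68 ± 0.13 (12.8-fold, edgeR adjusted p = 4.60e-15). Every ATRA library was far above every untreated one. ITGB1, the other beta partner of the alpha-4 chain, was at 85.7, 94.7 and 83.3 CPM in untreated and at 74.5, 87.9 and 83.4 CPM with ATRA, groups that overlapped (−0.10 ± 0.08, adjusted p = 0.383).

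The alpha partners rose moderately. ITGA5 went from 92.9, 108 and 115 CPM to 171, 167 and 176 CPM, by 0.70 ± 0.09 (1.63-fold, adjusted p = 3.62e-06), with tight ATRA values. ITGA4 went from 90.2, 102 and 93.6 CPM to 106, 114 and 133 CPM, a change of 0.30 ± 0.10 (1.24-fold, adjusted p = 0.0269). This was the least secure of the ATRA calls: it was lost at equal depth (0.21, adjusted p = 0.209) and without untreated replicate 1 (adjusted p = 0.0984), untreated replicate 3 (0.0835) or ATRA replicate 3 (0.140).

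Both ligand genes rose with ATRA. ICAM1 was at 28.5, 32.0 and 31.1 CPM in untreated and at 70.8, 60.6 and 66.8 CPM in ATRA libraries, a rise of 1.11 ± 0.11 (2.17-fold, edgeR adjusted p = 5.96e-08). ICAM3, the constitutive ICAM of resting leukocytes, went from 34.9, 34.4 and 31.8 CPM to 61.4, 56.2 and 48.2 CPM, by 0.72 ± 0.10 (1.65-fold, adjusted p = 1.77e-05). Neither gene's groups overlapped.

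**Figure D2:**
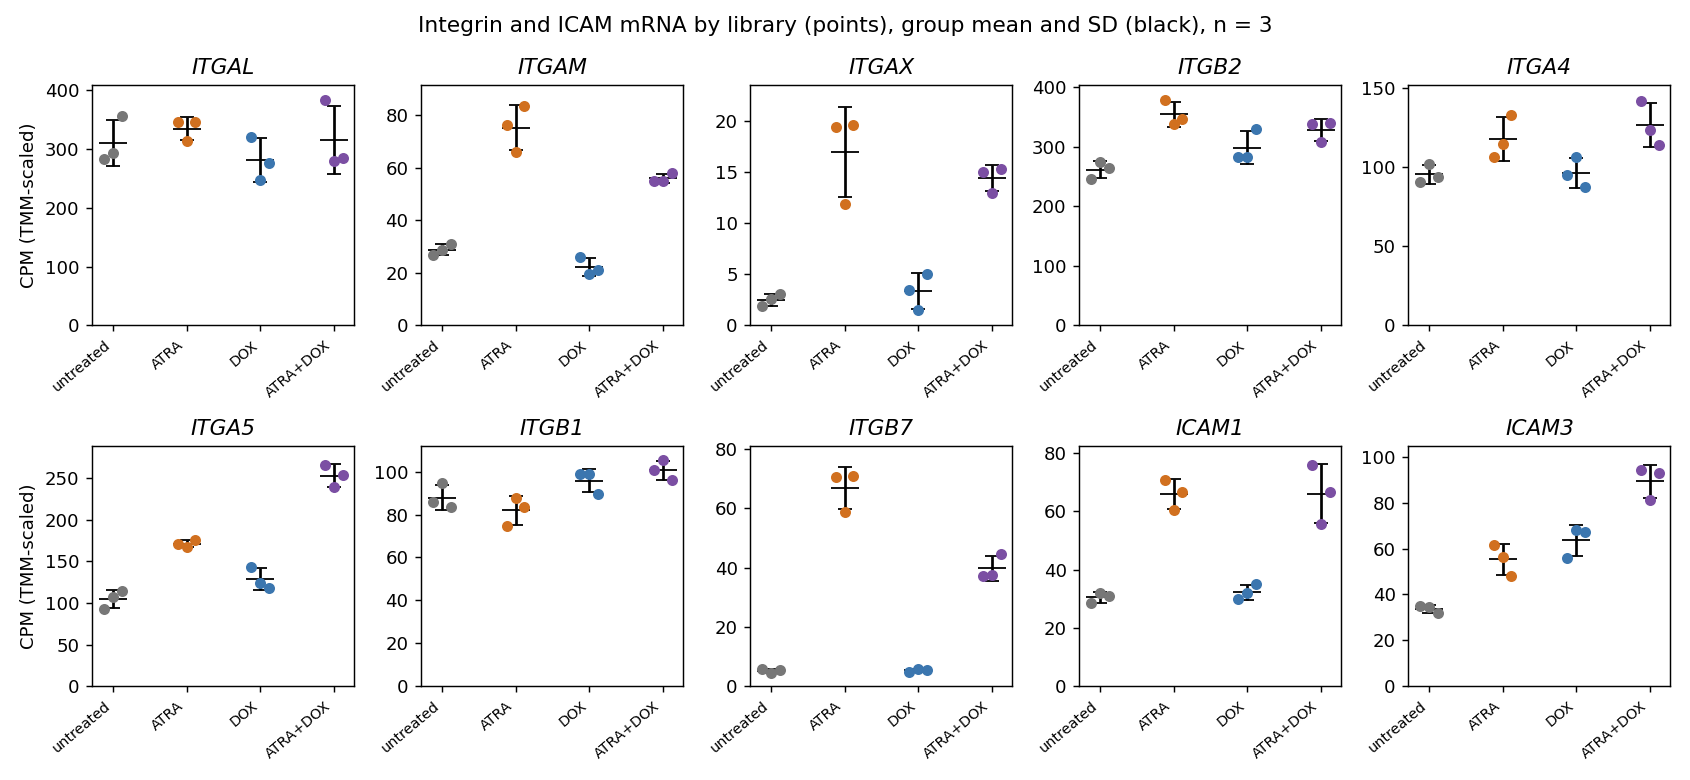
TMM-scaled CPM of the 10 genes in the 4 groups, with linear axes from 0, a point for each library and the group mean with SD in black (n = 3). The ATRA libraries of ITGAM (66.0 to 83.2 CPM) and ITGB7 (58.7 to 71.0 CPM) lie above the combined libraries (54.8 to 57.8 and 37.2 to 44.5 CPM), while ITGA5 and ICAM3 are highest in the combined group.

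Induction of the RIP140 shRNA without ATRA moved few of these genes. ICAM3 and ITGA5 rose and ITGAM fell, so 2 of 10 were higher and 1 lower, where 8.08% of all tested genes were called higher and 7.1% lower (edgeR). The median log2 change was 0.05 for the 10 genes and 0.01 for all genes. ICAM3 stood out: its DOX libraries were at 56.0, 68.1 and 67.2 CPM, all above the highest untreated library at 34.9 CPM, and it rose by 0.91 ± 0.11 (1.89-fold, adjusted p = 6.41e-05). With the share of mitochondrial ribosomal RNA as a term in the model its change was 0.64 (adjusted p = 0.0359).

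The other 2 calls were near the threshold. ITGA5 was at 143, 124 and 118 CPM with DOX, just above the untreated maximum of 115 CPM (0.30 ± 0.09, adjusted p = 0.0339), and ITGAM at 26.03, 19.6 and 21.1 CPM, just below the untreated minimum of 26.9 CPM (−0.37 ± 0.12, adjusted p = 0.0402). Both calls were lost with the mitochondrial ribosomal RNA term (0.50, adjusted p = 0.0606, for ITGA5 and −0.17, adjusted p = 0.848, for ITGAM). With that term only 77 of all tested genes were called with DOX, where the main fit called 1302 higher and 1144 lower. Losing a DOX call to this term is therefore not particular to these 2 genes. Leaving out untreated replicate 2 or DOX replicate 2 also ended both calls. That of ITGA5 was lost too without untreated replicate 1 or DOX replicate 1, and that of ITGAM without untreated replicate 3, DOX replicate 3, ATRA replicate 1 or combined replicate 2, with adjusted p from 0.0508 to 0.318 over these libraries. Whether the ribosomal RNA share has a part in the 2 changes was not tested further.

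For the remaining 7 genes no DOX effect passed the test. ITGB7 was at 4.86, 5.66 and 5.38 CPM with DOX (0.02 ± 0.17, 95% interval −0.30 to 0.35), all within the range of its untreated libraries. ICAM1 at 29.9, 32.0 and 34.9 CPM (0.06 ± 0.11, interval −0.17 to 0.28) and ITGA4 at 95.1, 106 and 87.2 CPM (0.03 ± 0.10, interval −0.17 to 0.23) overlapped their untreated libraries. ITGB1 was at 98.8, 98.7 and 89.5 CPM (0.13 ± 0.09, adjusted p = 0.294). ITGAL was at 321, 247 and 275 CPM (−0.14 ± 0.12, adjusted p = 0.441). ITGB2, at 282, 283 and 330 CPM, was above every untreated library and yet did not pass (0.18 ± 0.09, adjusted p = 0.151). ITGAX at 3.50, 1.48 and 4.99 CPM had 84 counts in the group and an interval from −0.63 to 0.70, or 0.648- to 1.62-fold, so changes within that range were not excluded.

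Under ATRA, induction of the shRNA split the genes. ICAM3, ITGA5 and ITGB1 were higher and ITGB7 and ITGAM lower in the combined group than with ATRA alone, 3 and 2 of 10, where 1.89% of all tested genes were called higher and 2.54% lower (edgeR). ITGB7 was at 37.2, 37.5 and 44.5 CPM, all below the lowest ATRA library at 58.7 CPM, and differed by −0.76 ± 0.10 (0.592 of the ATRA level, adjusted p = 0.000144). ITGAM was at 54.8, 54.9 and 57.8 CPM, also below every ATRA library, and differed by −0.43 ± 0.10 (0.742 of the ATRA level, adjusted p = 0.0190). The ITGB7 call held under all alternatives run (−0.88 to −0.71). The ITGAM call was lost with the ribosomal RNA term (−0.34, adjusted p = 0.0763) and without ATRA replicate 1 (adjusted p = 0.0790), ATRA replicate 3 (0.133) or combined replicate 2 (0.0816).

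The 3 genes that were higher included the fibronectin receptor's 2 chains. ICAM3 was at 94.1, 81.1 and 93.0 CPM, a rise of 0.69 ± 0.10 over ATRA alone (1.61-fold, edgeR adjusted p = 0.000213). ITGA5 was at 267, 239 and 254 CPM, by far its highest level in any group, a rise of 0.56 ± 0.09 (1.48-fold, adjusted p = 0.000508). Both held under all alternatives run. ITGB1 was at 101, 105 and 96.3 CPM against 74.5 to 87.9 CPM, a difference of 0.30 ± 0.08 that only just passed (1.23-fold, adjusted p = 0.0453). It was lost at equal depth (0.25, adjusted p = 0.263) and in 8 of the 12 fits that each left out a library, namely those without untreated replicate 1 or 2, ATRA replicate 1 or 3, DOX replicate 3 or any combined library.

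The other 5 genes did not pass under ATRA. ICAM1 in the combined libraries, at 76.1, 55.8 and 66.6 CPM, lay around its ATRA libraries (0.00 ± 0.10, 95% interval −0.20 to 0.20). ITGB2 at 338, 307 and 340 CPM (−0.11 ± 0.09), ITGA4 at 142, 124 and 114 CPM (0.11 ± 0.10), ITGAL at 382, 280 and 284 CPM (−0.08 ± 0.12) and ITGAX at 15.0, 12.9 and 15.3 CPM (−0.25 ± 0.22) overlapped theirs as well.

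**Figure D3:**
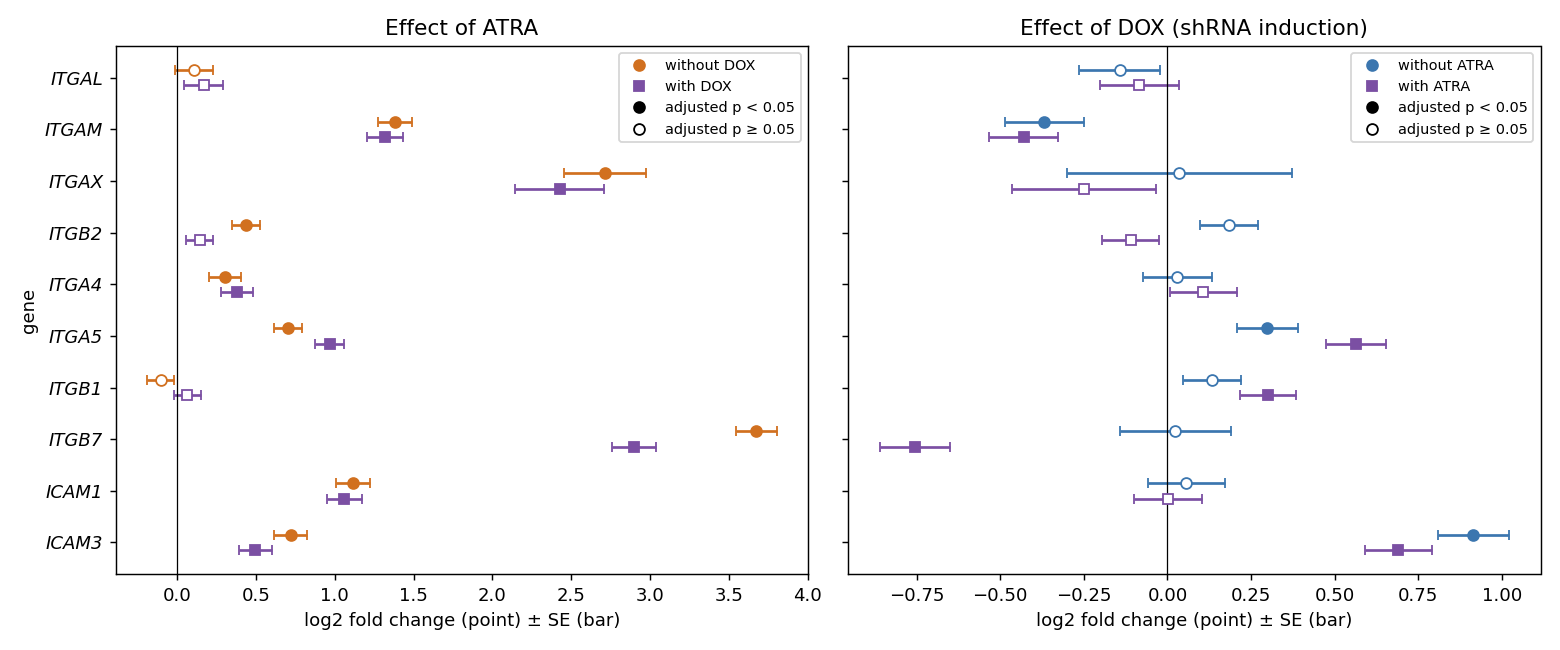
Log2 fold change of each gene (points) with its standard error (bars) for ATRA in the left panel and for DOX in the right panel, each in the absence and presence of the other agent, with filled symbols for an adjusted p under 0.05. ITGB7 rises by 3.68 with ATRA alone and by 2.90 with DOX present, and in the right panel ICAM3 and ITGA5 lie to the right of 0 in both states and ITGAM to the left.

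ATRA still acted on most members once the shRNA was induced. Relative to DOX alone, 7 of 10 genes rose in the combined group and none fell, where 10.7% of tested genes were called higher and 8.24% lower (edgeR). ITGB7 rose by 2.90 ± 0.14 (7.44-fold, adjusted p = 1.25e-12), ITGAX by 2.43 ± 0.28 (5.38-fold) and ITGAM by 1.32 ± 0.12 (2.49-fold). ICAM1 rose by 1.06 ± 0.11, ITGA5 by 0.97 ± 0.09, ICAM3 by 0.50 ± 0.10 and ITGA4 by 0.38 ± 0.10. The ITGA4 call was lost without DOX replicate 3 (adjusted p = 0.0525) or combined replicate 1 (0.0552). ITGB2, which had risen with ATRA alone, did not pass here (0.14 ± 0.09, adjusted p = 0.278).

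Whether the ATRA effect itself differed between the 2 shRNA states was tested as an interaction, for which 0.0435% of all tested genes were called higher and 0.224% lower. None of the 10 genes was called by edgeR or by DESeq2, and 2 had an unadjusted p under 0.05. ITGB7 came closest, with an ATRA effect smaller by 0.78 ± 0.20 on the log2 scale with DOX (interaction −0.78, unadjusted p = 0.000736, adjusted p = 0.105). Its adjusted p ran from 0.0285 without DOX replicate 1 to 0.534 at equal depth, and it was also called with no filter on low counts (−0.81, adjusted p = 0.0393). Interaction calls over all genes were also more in these 2 settings that called it, 747 and 189. The main fit called 7 genes higher and 36 lower, and 17 genes were called at equal depth. For ITGB2 the interaction was −0.29 ± 0.12 (unadjusted p = 0.0260, adjusted p = 0.399). A smaller ATRA response of ITGB7 and ITGB2 in shRNA-induced cells was thus not established over all genes.

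Compared with untreated cells, the combined group had 8 of 10 genes higher and none lower, where 19.6% of tested genes were called higher and 18.5% lower (edgeR). ITGB7 was higher by 2.92 ± 0.13, ITGAX by 2.46 ± 0.26, ICAM3 by 1.41 ± 0.10, ITGA5 by 1.27 ± 0.09, ICAM1 by 1.12 ± 0.11, ITGAM by 0.95 ± 0.11, ITGA4 by 0.41 ± 0.10 and ITGB2 by 0.33 ± 0.09. The ITGB2 call was lost with the ribosomal RNA term (adjusted p = 0.0709). Here the message of ICAM3 was 2.66-fold and that of ITGA5 2.41-fold that of untreated cells, the greatest excess these 2 genes showed in any comparison with untreated cells. ITGB1 (0.20 ± 0.08, adjusted p = 0.0680) and ITGAL (0.03 ± 0.12) did not pass. These comparisons share control libraries with those above and are not independent of them.

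Ratios between partners within a library gave the same contrasts free of scaling. The log2 ratio of ITGB7 to ITGB1 per kilobase, the beta chains that compete for alpha-4, was −3.46, −4.01 and −3.51 in untreated and 0.35, −0.16 and 0.19 in ATRA libraries. Near-equal counts per kilobase thus replaced a large excess of beta-1, in a ratio whose zero point is uncertain through the shared exon bases of ITGB7. With DOX it was −3.92, −3.70 and −3.63, and with both agents −1.01, −1.06 and −0.69. The ATRA effect over both DOX states was 3.31 (exact permutation test, n = 12, adjusted p = 0.00875). The DOX effect was −0.57 (adjusted exact p = 0.0382), made of −0.09 without ATRA and −1.05 with it. That DOX call was lost at equal depth (−0.51, adjusted p = 0.0636) and when any of 9 single libraries was left out, namely untreated replicates 1 and 3, all ATRA libraries, DOX replicate 1 and all combined libraries (adjusted p from 0.0509 to 0.0764). Leaving out a library also leaves fewer arrangements, so the exact p moves in coarser steps.

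The balance of alpha-4 to alpha-5 message moved the same way with either agent. The log2 ratio of ITGA4 to ITGA5 was −0.20 ± 0.14 without agents (SD, n = 3), −0.61 ± 0.14 with ATRA, −0.48 ± 0.18 with DOX and −1.07 ± 0.13 with both. The ATRA effect was −0.50 (exact permutation test, adjusted p = 0.00875) and the DOX effect −0.37 (adjusted p = 0.0156). That DOX effect was made of −0.28 without ATRA, where DOX and untreated libraries overlapped, and −0.46 with it. All 3 combined libraries, from −1.22 to −0.97, were below every other library.

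For the 2 ligands, the agents moved the ratio in opposite directions. The log2 ratio of ICAM1 to ICAM3 was −0.62, −0.43 and −0.36 without agents and −0.12, −0.22 and 0.14 with ATRA. With DOX it was −1.23, −1.42 and −1.27, and with both agents −0.64, −0.87 and −0.81. The ATRA effect was 0.47 and the DOX effect −0.77 (exact permutation tests, n = 12, adjusted p = 0.00875 for both). Per kilobase, counts for ICAM3 were in excess in every untreated, DOX and combined library and in 2 of 3 ATRA libraries. The shared exon bases of both genes leave the size of that excess uncertain. Within the beta-2 family, the DOX effect on the ITGAM share was −2.25 percentage points (adjusted exact p = 0.00875), with 8.17 ± 0.251% in DOX and 16.4 ± 2.46% in combined libraries. The ITGAL share moved up by 2.15 points (adjusted exact p = 0.0210), and this call was lost without ATRA replicate 1 (2.12, adjusted p = 0.0636), ATRA replicate 3 (1.79, 0.102) or combined replicate 1 (1.35, 0.0525), fits that again had fewer arrangements. The ITGAX share showed no DOX effect past the test (0.08 points, adjusted exact p = 0.755).

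**Figure D4:**
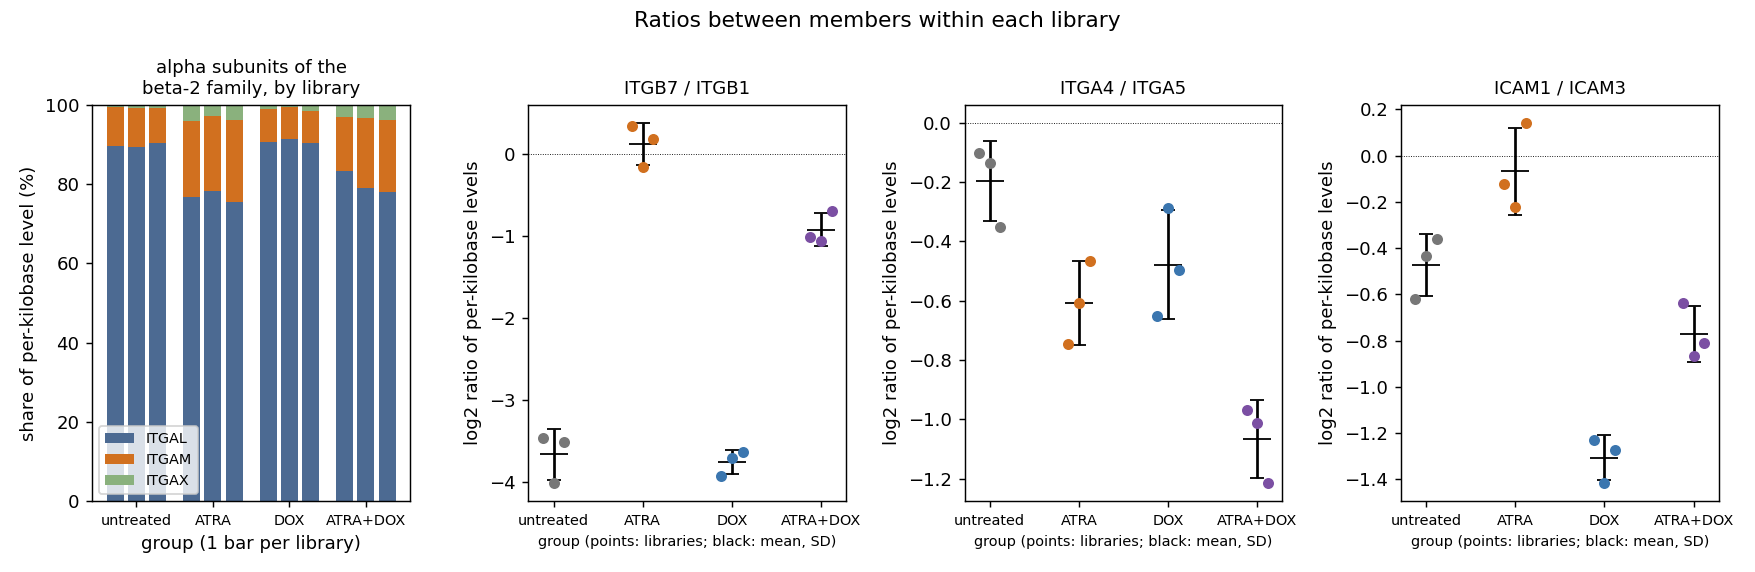
From left: share of ITGAL, ITGAM and ITGAX in the per-kilobase level of the 4 beta-2 alpha chains (1 stacked bar per library; ITGAD, too low to see, is left out), and the log2 ratios of ITGB7 to ITGB1, ITGA4 to ITGA5 and ICAM1 to ICAM3 (points are libraries, black marks mean and SD, n = 3). The ITGB7 to ITGB1 ratio stands near 0 only in ATRA libraries, and the ICAM1 to ICAM3 ratio is lowest in the DOX libraries.

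Some of these genes share exon sequence with a gene on the opposite strand, and the strand setting of the counting is not given in the sources used here, so their reads cannot be told apart with certainty. ITGB7 shares 42.09% of its exon bases with ZNF740, whose own counts rose by 0.71 ± 0.08 with ATRA and were lower by 0.38 ± 0.08 in the combined group than with ATRA (adjusted p = 4.29e-07 and 0.00605, edgeR). Those changes have the direction of the ITGB7 changes and are smaller. ICAM3 shares 71.22% with the antisense gene AC114271.1, which rose by 0.51 ± 0.09 with ATRA, by 0.55 ± 0.09 with DOX and by 0.50 ± 0.09 in the combined group over ATRA. ICAM1 shares 21.99% with AC011511.5, which changed by 0.27 ± 0.10 with ATRA (adjusted p = 0.0522) and rose by 0.52 ± 0.10 with DOX. The part of these partners in the ITGB7, ICAM3 and ICAM1 counts was not tested. Their per-kilobase levels, their rank among the members and the zero points of their ratios are therefore uncertain. For the other 7 members the largest shared part was 6.41%, in ITGAL.

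The neighbours of ICAM1 in the chromosome 19 cluster had other calls. ICAM4, the red cell ligand LW, was at 33.1 ± 1.495 CPM in untreated and 33.3 ± 4.22 CPM in ATRA libraries (log2 change 0.01 ± 0.13). With DOX it was at 48.2 ± 8.06 CPM, a rise of 0.52 ± 0.13 (edgeR adjusted p = 0.0136). That call was lost without DOX replicate 2 and with the ribosomal RNA term, which left only 77 DOX calls over all genes. ICAM5, or telencephalin, fell with ATRA from 55.6 ± 6.68 to 29.9 ± 3.25 CPM, by 0.89 ± 0.13 (adjusted p = 1.22e-05), and was at 23.5 ± 2.63 CPM in the combined group. Within the cluster ICAM1 and ICAM3 thus rose with ATRA, ICAM5 fell and ICAM4 did not pass the test.

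Of 18 other integrin subunit genes, 5 passed the filter, and ITGA8 and ITGB6 had no counts at all. With ATRA 2 of the 5 rose and 1 fell, and this and the gene list counts that follow are read beside the 15.7% of all tested genes called higher and 13.2% called lower with ATRA. ITGA6, whose alpha-6 chain pairs with beta-1 or beta-4 to bind laminin, was at 5.72 ± 0.204 CPM in untreated and at 90.7 ± 11.9 CPM in ATRA libraries, a rise of 3.98 ± 0.12 (15.8-fold, edgeR adjusted p = 2.30e-16), with a larger fitted change than that of ITGB7. It was at 9.17 ± 0.753 CPM with DOX and at 79.6 ± 3.10 CPM with both. Its interaction was −0.90 ± 0.17 (adjusted p = 0.0169), which no longer passed at equal depth or with any 1 untreated library or ATRA replicate 3 left out. ITGAE, whose alpha-E chain pairs with beta-7, was at 25.6 ± 2.25 and 33.3 ± 3.25 CPM in untreated and ATRA libraries (0.38 ± 0.11, adjusted p = 0.0129). Leaving out untreated replicate 3 or ATRA replicate 2 ended this call. ITGA7 fell with ATRA by 1.12 ± 0.15 (adjusted p = 5.94e-06). ITGAV, a partner of several beta chains, stayed between 11.8 ± 1.33 and 14.2 ± 0.743 CPM in group means and was called in no contrast.

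Of 14 other ligands of these integrins, 11 passed the filter, and with ATRA 3 rose and 2 fell, where 15.7% and 13.2% of all tested genes did. With so few genes these counts are no more than a description. CD209, or DC-SIGN, a lectin that binds ICAM-3, went from 1.66 ± 0.285 to 124 ± 11.6 CPM with ATRA, by 6.17 ± 0.23 (edgeR adjusted p = 1.24e-14). It was at 2.34 ± 1.48 CPM with DOX and at 37.3 ± 9.41 CPM with both, lower than with ATRA by 1.73 ± 0.16 (adjusted p = 2.23e-06). FCER2, or CD23, which Mac-1 and CD11c bind, rose with ATRA from 2.94 ± 0.374 to 22.0 ± 3.38 CPM, by 2.89 ± 0.30 (adjusted p = 1.73e-07), and was at 24.3 ± 11.95 CPM in the combined group. VCAM1, the endothelial ligand of VLA-4, had no counts in any library.

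Genes that switch integrins on were called in both directions. Of 15 tested genes of inside-out signalling, 7 rose and 1 fell with ATRA. TLN1, talin, which binds the beta chain's tail, rose from 442 ± 13.2 to 611 ± 37.5 CPM (0.47 ± 0.09, edgeR adjusted p = 0.000290), and FERMT3, kindlin-3, from 108 ± 2.81 to 146 ± 10.1 CPM (0.44 ± 0.08). With DOX 2 of the 15 rose (APBB1IP and FERMT3) and 2 fell, RASGRP2 among them, where 8.08% and 7.1% of all tested genes did. The call of APBB1IP was lost without untreated replicate 3, that of FERMT3 without untreated replicate 2, and both with the ribosomal RNA term. That term left only 77 DOX calls over all genes. In the combined group against ATRA 1 rose and 2 fell, where 1.89% of all tested genes were called higher and 2.54% lower. RASGRP2, which loads the GTPase Rap1, rose by 0.73 ± 0.10 with ATRA, from 35.5 ± 1.57 to 58.9 ± 3.44 CPM. With DOX alone it fell to 23.0 ± 2.65 CPM (−0.64 ± 0.11, edgeR adjusted p = 0.00201), a call lost with the ribosomal RNA term. In the combined group it was at 36.5 ± 4.71 CPM, lower than with ATRA by 0.69 ± 0.10 (adjusted p = 0.000336). ATRA still raised it by 0.69 ± 0.11 over DOX alone, a call lost at equal depth. APBB1IP, or RIAM, which links Rap1 to talin, was at 102 ± 11.5 CPM with ATRA and at 176 ± 7.06 CPM with both, a rise of 0.78 ± 0.10 (adjusted p = 7.27e-05).

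Of 8 tested inhibitors of integrins, 2 rose and 2 fell with ATRA, with so few genes no more than a description beside the 15.7% and 13.2% of all tested genes. SIPA1, a Rap1 inactivator, rose by 1.01 ± 0.09 with ATRA (edgeR adjusted p = 1.80e-08). With DOX 1 of the 8 rose and 1 fell, where 8.08% and 7.1% of all tested genes did, both calls being weak. The rise of SIPA1 was lost in 17 alternatives, DESeq2 among them and any 1 untreated or DOX library, ATRA replicate 1 or 2 or combined replicate 2 left out, and the fall of FLNA in 7, among them without any 1 untreated library or DOX replicate 2 or 3. In the combined group against ATRA only FLNA was called, where 1.89% of all tested genes were called higher and 2.54% lower. FLNA encodes filamin A, which competes with talin for beta tails. It was at 335 ± 41.9 CPM beside 539 ± 34.2 CPM with ATRA (lower by 0.68, log2 −0.68 ± 0.10, adjusted p = 0.000187).

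Downstream of the receptors, 12 of 20 adaptor and kinase genes rose with ATRA and 1 fell, where 15.7% of all tested genes were called higher and 13.2% lower. The kinase gene FGR rose by 3.55 ± 0.20, TYROBP, which encodes the adaptor DAP12, by 1.81 ± 0.12, PXN, paxillin, by 1.66 ± 0.09 and LCP2, or SLP-76, by 1.61 ± 0.09 (edgeR adjusted p from 8.91e-12 to 1.44e-10). The gene that fell was SYK, named after its value was seen (−0.27 ± 0.08, adjusted p = 0.0116). Its call ended when untreated replicate 1 or 2 or ATRA replicate 3 was left out. With DOX none of the 20 was called by edgeR or DESeq2, and 3 had an unadjusted p under 0.05. Over all tested genes edgeR called 8.08% higher and 7.1% lower with DOX. In the combined group against ATRA none was called by edgeR, which called 1.89% of all tested genes higher and 2.54% lower. Among the 20, 4 had an unadjusted p under 0.05 and 1, LCP2, was called by DESeq2.

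Of 8 other adhesion partners, 5 were tested, and with ATRA 2 rose and 2 fell, again few genes beside the shares of all tested genes. PECAM1, or CD31, rose from 65.5 ± 3.71 to 158 ± 8.92 CPM (1.27 ± 0.10, edgeR adjusted p = 3.22e-09) and with DOX to 107 ± 16 CPM (0.70 ± 0.10, adjusted p = 0.000574). SELPLG, the P-selectin ligand PSGL-1, rose with ATRA by 0.57 ± 0.10. CD44, the hyaluronan receptor, fell by 0.72 ± 0.08, and CD47 was called lower with ATRA at −0.26 ± 0.09, which no longer passed when untreated replicate 2, ATRA replicate 1 or 2 or combined replicate 1 or 2 was left out. Of 4 tested enzymes that shed adhesion receptors from the surface, ADAM17 rose with ATRA by 0.41 ± 0.11 (adjusted p = 0.00630), from 37.5 ± 3.41 to 50.1 ± 2.96 CPM, a call lost at equal depth.

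Genes whose log2 CPM followed a member most closely over the 12 libraries were listed by Pearson's r, as a description, since all points share the 4 groups. ITGB7 ran with TLDC2 (r = 0.999), SAMHD1 (0.998) and MYBPH (0.994). ITGAM ran with CSF1R (0.988), SH2B3 (0.987) and SMG6 (0.987), and ITGAX with GRIN2D, CSF3R and FGR (0.983, 0.983 and 0.981). ICAM1 ran with GRN (0.987), MX2 (0.984) and IFIT3 (0.983), and ICAM3 with AIFM1 (0.984) and PSMB8 (0.980). ITGA5 was nearest to TGFB1 (0.977) and ITGB2 to DNAJB12 and SLC16A3 (both 0.974). The genes with little change had looser companions, with ITGA4 nearest to CD46 (0.921), ITGAL to ZNF461 (0.914) and ITGB1 to NRAS (0.887). Between members, ITGAM ran with ITGB7 (0.963) and ITGAX (0.925), and ICAM1 with ITGB7 (0.963) and ITGAX (0.954). ICAM3 was less close to ITGAM (0.308) and nearest to ITGA5 (0.810).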

How the data were processed

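Paired-end RNA-seq of MOLM14 cells was used. Per the submitters' processing notes, reads were handled with FastQC, STAR and HTSeq on GRCh38. Versions, annotation release and strand setting are not given in the sources used here. The authors deposited raw counts per gene, and 23 empty columns of the table were not used. Symbols came from a gene name table (61369 of 61487 identifiers) and exon lengths and positions from GENCODE 29.

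Genes were filtered with filterByExpr, scaled by TMM and fitted in 1 quasi-likelihood model of 4 group means with edgeR 4.0.16 in R 4.3.3. The p-values of this model were adjusted over 16104 genes, and those of each alternative gene fit over the genes tested in it. Ratio p-values were adjusted over 14 tests. The threshold was 0.05 throughout. Errors of log2 changes are the change over the square root of F. The biological coefficient of variation was 9.54%. Ratios were tested by exact stratified permutation. Alternatives included DESeq2 1.42.0, scaling by library size, no filter, equal depth (thinned to 2685984 counts), a mitochondrial ribosomal RNA term, a replicate block and leaving out libraries. The code was checked on simulated counts.

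Members and gene lists were chosen with earlier results of these data known. Other genes named are, within each list and contrast, up to 4 called genes with the smallest adjusted p, chromosomal neighbours and chain partners, and for each member the 3 genes of highest correlation with a mean of at least 2 CPM.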

Additional observations from a re-analysis of the deposited data

How the results depend on the processing

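Over 60 pairs of a gene and a contrast, 9 changed side of the threshold under any alternative and none reversed: of 1190 values, 1138 kept their call, 46 lost it and 6 gained one. For DOX against untreated, 3 genes were called, but 1 (ICAM3) with library sizes alone, at equal depth, with the mitochondrial ribosomal RNA term, with only the 2 groups fitted, or without untreated replicate 3 and DOX replicate 3 together (an alternative chosen after seeing the data). Over all genes the DOX calls in these settings, in that order, were 1876, 1158, 77, 1573 and 169. The main fit called 1302 genes higher and 1144 lower, so calls became fewer over all genes as well. Leaving out 1 library gave 1 to 3 members, and 659 to 4326 calls over all genes. The combined group against ATRA had 5 genes and 3 to 5 without 1 library. Over all genes the main fit called 304 higher and 409 lower there, and fits without 1 library called 264 to 1028. The interaction had 0 genes, 1 without a filter on low counts, and 0 to 1 without 1 library. Over all genes it had 7 higher and 36 lower, with 189 calls without that filter and 10 to 747 without 1 library. The DOX effect on the log2 ITGB7 to ITGB1 ratio was −0.51 at equal depth, −0.56 without that pair of libraries and −0.66 to −0.52 without 1 library, and it kept its call only without untreated replicate 2, DOX replicate 2 or DOX replicate 3. The DOX effect on the ITGAL share ran from 1.35 to 2.67 points without 1 library. Same-numbered libraries were treated as unpaired in the main fit. Of 18 pairs of libraries with the same number, 4 had correlated deviations over 0.1 (0.267 for DOX and combined replicate 1). Of 12 libraries, 3 correlated best with their own number. Such correlations cannot show that same-numbered libraries were not handled together. With a replicate block the ITGB7 to ITGB1 effect was −0.57, not past the threshold. The causes of these changes were not tested. Among 25 other named genes none reversed. ITGAX and ITGB7 had the fewest counts, 84 and 178 over the DOX libraries; at equal depth the calls lost were those of ITGA4 (ATRA), ITGA5 and ITGAM (DOX) and ITGB1 (combined against ATRA).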
